A study of Rattus norvegicus with 8 samples.

Results

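The genes described here are 7 genes of the cardiac contractile apparatus and its cytoskeleton: Myh7 and Myh6 (myosin heavy chains), Acta1 and Actc1 (sarcomeric actins), Tnnt2 and Tnni3 (troponins) and Des (desmin). They were chosen by Ensembl rat identifier from a table of 32285 genes, by a rule that names no measured value but was set with earlier results of these data known, and all 7 were among the 16313 genes with enough counts to be tested. The RNA was from sinoatrial node, where the heartbeat starts, dissected from Dahl salt-sensitive rats (SS/JrHsdMcwiCrl), an inbred strain prone to hypertension when salt intake is high. The Control group (4 libraries) was fed a diet of 0.4% NaCl for 11 weeks. The other group (4 libraries) was fed 8% NaCl for as long and is labelled HFpEF, for heart failure with preserved ejection fraction. There was no arm with high salt and without heart failure, so salt, blood pressure and heart failure cannot be told apart in any comparison. The labels give neither the animals' age nor whether a library is 1 rat or a pool, so p-values refer to the spread between libraries.

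A sarcomere shortens when myosin heads of the thick filament pull on actin of the thin filament, and troponin on the thin filament makes this depend on calcium. Myh6 encodes the fast alpha isoform of the heavy chain, which dominates in the adult rat heart. Myh7 encodes the slower beta isoform, which dominates in the ventricle before birth. Actc1 encodes the cardiac and Acta1 the skeletal isoform of sarcomeric alpha-actin. In rodent ventricle under pressure load, higher Myh7 and Acta1 belong to a well known fetal gene programme. Pacemaker cells of the node hold few and loosely ordered sarcomeres, and dissected node tissue also carries atrial working muscle, vessels and connective tissue.

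The actin pair is shown first by its regulatory sequence, because of its log2 fold changes. Of the 7 genes in the main edgeR fit, Acta1 had the log2 fold change of largest and Actc1 that of smallest size. Tnnt2 was close to Actc1 there (-0.0724 against 0.0682). With DESeq2, Tnnt2 had the smaller size (-0.0694 against 0.0708). Windows of 280 bases, from 250 before to 30 after the annotated start, were taken from RefSeq promoter sequences of the GRCr8 build, matched by symbol (7 of 7 genes). Capitals mark a CArG box, the site type bound by serum response factor, and an M-CAT element (CATTCC), the site type bound by TEAD factors. Both strands were searched, and the motifs did not overlap one another. The windows lie at chr19:68784165-68784444 for Acta1 and chr3:121271798-121272077 for Actc1, both read 5′ to 3′ on the minus strand.
Acta1: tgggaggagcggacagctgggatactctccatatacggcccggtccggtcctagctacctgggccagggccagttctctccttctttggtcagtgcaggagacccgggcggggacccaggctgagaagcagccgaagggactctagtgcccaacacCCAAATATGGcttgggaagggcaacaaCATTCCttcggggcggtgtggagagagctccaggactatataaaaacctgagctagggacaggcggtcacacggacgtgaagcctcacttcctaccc
Actc1: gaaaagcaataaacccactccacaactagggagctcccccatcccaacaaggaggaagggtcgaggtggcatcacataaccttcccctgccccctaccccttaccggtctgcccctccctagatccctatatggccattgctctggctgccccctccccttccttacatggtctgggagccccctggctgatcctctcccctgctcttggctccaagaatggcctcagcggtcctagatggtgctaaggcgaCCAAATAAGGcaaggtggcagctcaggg

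In Acta1 the CArG box spans bases -94 to -85 and the M-CAT element bases -67 to -62, counting the annotated start as base 1. In Actc1 the CArG box lies at bases 3 to 12, and the window holds no CATTCC. Whether the annotated starts are those used in the node was not tested. The positions therefore depend on the annotation and do not compare the layout of the promoters. Of all 33469 windows of this length, 1.59% hold a CArG box and 13.5% hold CATTCC. Among the other 5 genes, CATTCC was found in the Myh6 window and in the Tnnt2 window at chr13:49818873-49819152. It was not found in the other Tnnt2 window, at chr13:49823809-49824088, and none of the 5 has a CArG box in these windows. An absent motif describes the window only, since a window at an unchecked start may miss the promoter in use. A match describes letters only and shows neither a bound factor nor a cause.

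Total counts ran from 31774820 to 38889395 per library and did not set HFpEF libraries apart from Control by a gap. Levels are given as normalised CPM (counts relative to the scaled library total), which are not corrected for transcript length, so they compare libraries for 1 gene and not genes with each other. With edgeR's quasi-likelihood test across all tested genes, 0 of the 7 genes passed a Benjamini-Hochberg adjusted p of 0.05, where 316 of all tested genes, or 1.94%, did (1.54% higher and 0.398% lower in HFpEF). At an unadjusted p under 0.05 there were 4 of the 7 (Acta1, Des, Myh7 and Myh6), where 19.6% of all tested genes were. limma-voom called 0 of the 7, against 1.37% of all tested genes, and gave 3 an unadjusted p under 0.05, against 19%. Acta1 and Des were the 2 called by DESeq2, which called 7.65% of all tested genes. It gave 4 of the 7 an unadjusted p under 0.05, against 19.7% of all tested genes. The median log2 fold change was 0.07 over the 7 genes and -0.0041 over all tested genes, with 4 of the 7 above 0 and 3 below. In whole tissue, fewer cells of a type and less RNA per cell cannot be told apart.

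**Figure D1:**
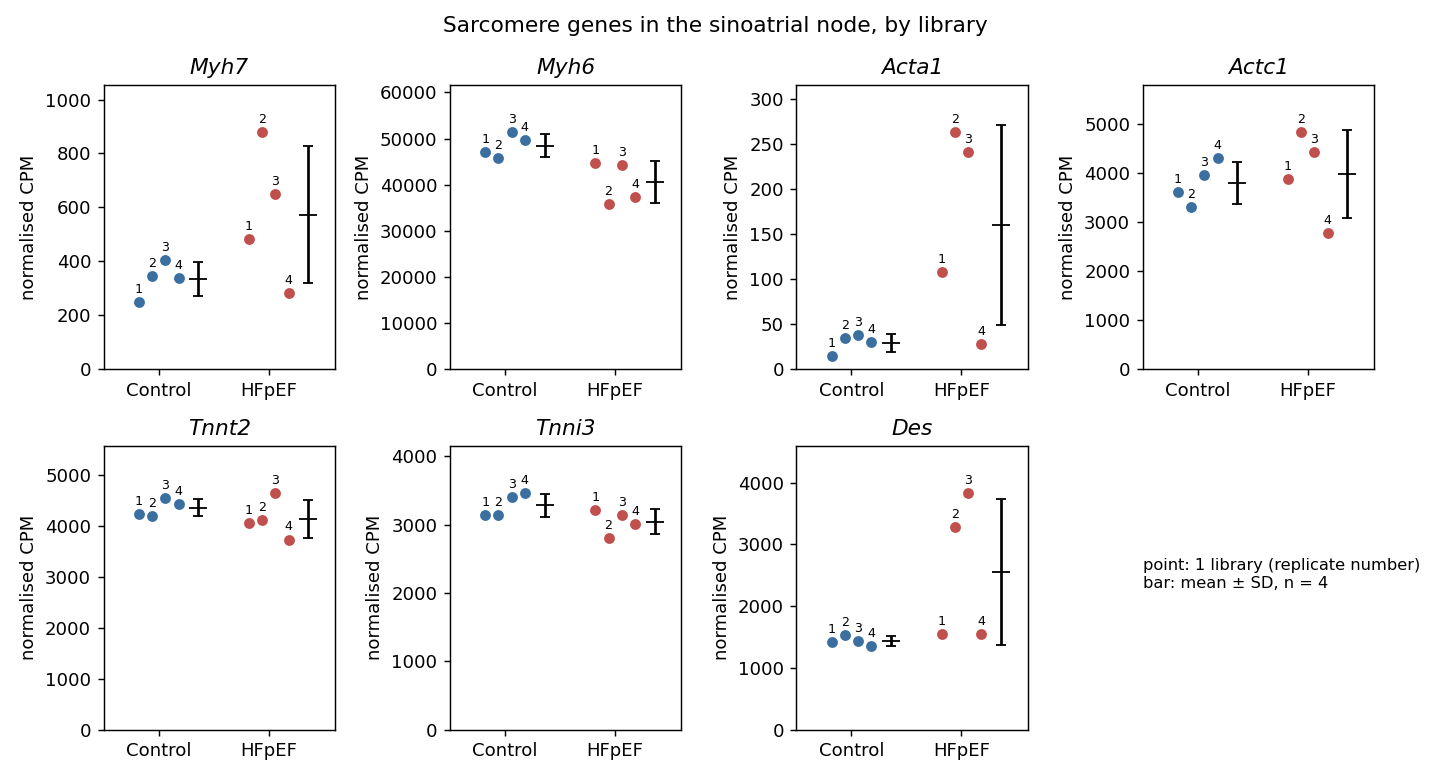
Normalised CPM (vertical axes from 0, a scale for each gene) of the 7 genes in each of the 4 Control and 4 HFpEF libraries; points are libraries with their replicate number, and bars are mean ± SD. Acta1, Myh7 and Des are highest in HFpEF replicates 2 and 3, while HFpEF replicate 4 lies at Control level for Acta1 and Myh7.

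Among the thick filament genes, Myh6 (ENSRNOG00000025757) stood at 47081, 45804, 51363 and 49670 CPM in Control replicates 1 to 4. In HFpEF replicates 1 to 4 it stood at 44590, 35823, 44169 and 37301 CPM. Every HFpEF library was below every Control library, as was so in 5.73% of all tested genes, and HFpEF replicates 2 and 4 were the lowest. The group means were 48479 ± 2506 CPM (Control) and 40471 ± 4557 (HFpEF; SD, n = 4 each), with log2 fold change -0.26 (SE 0.10, edgeR adjusted p = 0.213). Myh6 took 4.73% to 5.04% of a Control library's counts and 3.57% to 4.37% of an HFpEF library's. It ranked 3 in mean CPM among all tested genes. That rank is not corrected for transcript length and does not order transcripts by abundance.

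Myh7 (ENSRNOG00000016983) stood at 248.7, 343, 403 and 338 CPM in Control replicates 1 to 4. Its levels in HFpEF replicates 1 to 4 were 483, 878, 648 and 281 CPM. Replicates 1, 2 and 3 of HFpEF lay above every Control library, and HFpEF replicate 4 lay below 3 of the 4 Control libraries. The means were 333 ± 63.5 CPM (Control) and 573 ± 253 (HFpEF; SD, n = 4 each), with log2 fold change 0.78 (SE 0.31, edgeR adjusted p = 0.207). Its 95% interval ran from 1.06-fold to 2.77-fold, before any adjustment for the number of genes. The log2 fold change was 0.50 without HFpEF replicate 2 (edgeR adjusted p = 0.406) and 1.01 without HFpEF replicate 4 (edgeR adjusted p = 0.0592), the lowest and highest of the 17 alternative fits.

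The myosin isoform ratio removes library scaling, since both genes are counted in the same library. Myh7 had 0.528, 0.750, 0.784 and 0.680 counts per 100 counts of Myh6 in Control replicates 1 to 4. In HFpEF replicates 1 to 4 it had 1.083, 2.45, 1.47 and 0.753. The ratio was thus above every Control library in 3 of the 4 HFpEF libraries, while HFpEF replicate 4 lay between Control replicates 2 and 3. The mean was 0.686 ± 0.113 (Control) and 1.44 ± 0.736 (HFpEF; SD, n = 4 each), a fold of 1.93 between geometric means. An exact two-sided permutation test of the log2 ratio over the 70 splits gave p = 0.0571, and 0.0571 after adjustment over the 2 ratios tested, which misses 0.05; 0.0286 is the smallest that 4 against 4 libraries allow. Without HFpEF replicate 4, the only HFpEF library within the Control range, the groups no longer overlapped. The log2 difference was then 1.22 in place of 0.95 (exact permutation p = 0.0286, the smallest that 4 against 3 libraries allow). Leaving out that library removed the overlap, so this p is no separate support. Without HFpEF replicate 2 the log2 difference was 0.65 (exact permutation p = 0.0571). As a share of the counts of both genes, Myh7 made up 0.681% ± 0.112 (Control) and 1.41% ± 0.712 (HFpEF; SD, n = 4 each), so Myh6 held nearly all counts of this pair in every library.

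**Figure D2:**
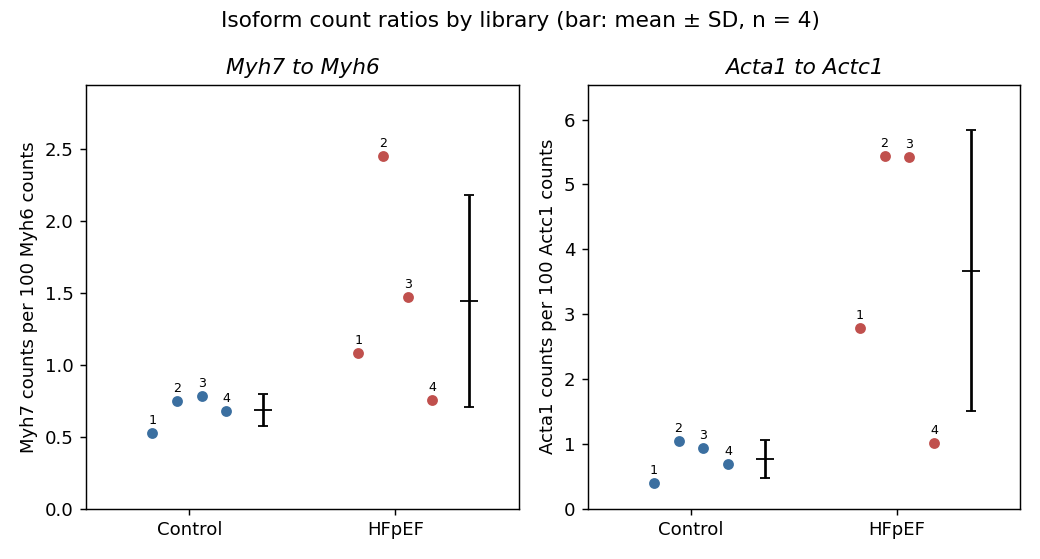
Counts of Myh7 per 100 counts of Myh6 (left) and of Acta1 per 100 counts of Actc1 (right) in each library, on axes from 0; points carry the replicate number and bars are mean ± SD of 4 libraries. In both panels HFpEF replicates 1, 2 and 3 lie above all Control libraries and HFpEF replicate 4 lies among them.

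Of the actins, Acta1 (ENSRNOG00000017786) had the widest difference between groups among the 7 genes. It stood at 14.3, 34.5, 37.2 and 29.4 CPM in Control replicates 1 to 4. HFpEF replicates 1 to 4 had 108, 263, 240 and 27.9 CPM. HFpEF replicates 2 and 3 were thus at 9.10 and 8.32 times the Control mean and HFpEF replicate 1 at 3.74 times, while HFpEF replicate 4, at 0.967 times, lay below Control replicates 2, 3 and 4. The means were 28.9 ± 10.2 CPM (Control) and 160 ± 111 (HFpEF; SD, n = 4 each). The fitted log2 fold change was 2.47 (SE 0.62, 95% interval 1.07 to 3.87), or 5.53-fold, and did not pass adjustment over all genes (edgeR adjusted p = 0.0794). Over the 17 alternative fits the log2 fold change ran from 2.12 to 2.82 and the adjusted p from 0.00743 with DESeq2 to 0.203 without Control replicate 1. Without HFpEF replicate 4, the only HFpEF library within the Control range, the edgeR adjusted p was 0.0242, which is no separate support. With any other library left out, the edgeR adjusted p ran from 0.0834 to 0.203. The lowest count of Acta1 was 530, in Control replicate 1, for which counting error from depth alone is 4.34%. The cause of the spread between libraries was not tested.

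Actc1 (ENSRNOG00000008536) stood at 3613, 3295, 3949 and 4294 CPM in Control replicates 1 to 4. Across HFpEF replicates 1 to 4 the values were 3865, 4822, 4429 and 2768 CPM. HFpEF held both the highest libraries, replicates 2 and 3, and the lowest, replicate 4, around a mean of 3971 ± 893 CPM against 3788 ± 430 in Control (SD, n = 4 each). The log2 fold change was 0.07 (edgeR adjusted p = 0.860), with a 95% interval from 0.810-fold to 1.36-fold. Its sign turned without HFpEF replicate 2, where it was -0.035 (edgeR adjusted p = 0.943).

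The actin ratio followed the same order of libraries as the myosin ratio within HFpEF. Acta1 had 0.397, 1.05, 0.942 and 0.685 counts per 100 counts of Actc1 in Control replicates 1 to 4. In HFpEF replicates 1 to 4 it had 2.79, 5.45, 5.42 and 1.01. As in the myosin pair, 3 of 4 HFpEF libraries lay above every Control library, and HFpEF replicate 4 lay between Control replicates 3 and 2. The mean was 0.768 ± 0.290 (Control) and 3.67 ± 2.17 (HFpEF; SD, n = 4 each), a log2 difference of 2.07 between geometric means. The exact two-sided permutation p was 0.0571, and 0.0571 adjusted over the 2 ratios, again short of 0.05. Without HFpEF replicate 4, again the only HFpEF library within the Control range, the log2 difference was 2.60 in place of 2.07. The exact permutation p was then 0.0286, again no separate support, since that library held the overlap.

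The coding sequences of the cardiac and skeletal actins, and of the alpha and beta heavy chains, are close to each other, and RSEM divides reads that fit more than 1 gene. Expected counts of Myh7, Acta1 and Tnni3 were non-whole in every library, and those of Myh6 and Actc1 were whole in 1 library each, HFpEF replicate 1. Those of Tnnt2 and Des were whole in all 8 libraries. How much of the Acta1 and Myh7 counts came from divided reads was not tested.

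Both troponins had small log2 fold changes. Tnnt2 (ENSRNOG00000033734), which encodes the cardiac troponin T that anchors the complex to tropomyosin, stood at 4231, 4196, 4551 and 4423 CPM in Control replicates 1 to 4. In HFpEF replicates 1 to 4 it stood at 4056, 4117, 4644 and 3732 CPM. HFpEF replicate 3 was the highest of all 8 libraries and the other 3 HFpEF libraries were the lowest. The log2 fold change was -0.07 (SE 0.08, edgeR adjusted p = 0.663), and the 95% interval ran from -0.25 to 0.11 on the log2 scale.

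Tnni3 (ENSRNOG00000018250) encodes the cardiac troponin I, the inhibitory subunit of the complex. It stood at 3138, 3138, 3400 and 3464 CPM in Control replicates 1 to 4 and at 3217, 2799, 3146 and 3016 CPM in HFpEF replicates 1 to 4. HFpEF replicates 2 and 4 lay below every Control library and HFpEF replicates 1 and 3 lay within the Control range. The log2 fold change was -0.11 (SE 0.07, edgeR adjusted p = 0.438), with a 95% interval from -0.27 to 0.05 on the log2 scale.

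Des (ENSRNOG00000019810) encodes desmin, the muscle intermediate filament that links Z-discs to each other and to the cell membrane, and which smooth muscle also makes. It stood at 1411, 1533, 1436 and 1347 CPM in Control replicates 1 to 4. Its levels in HFpEF replicates 1 to 4 were 1541, 3281, 3831 and 1541 CPM. Every HFpEF library was above every Control library, as in 6.74% of all tested genes, but HFpEF replicates 1 and 4 did so by less than 10 CPM over Control replicate 2. HFpEF replicates 2 and 3 were at 2.29 and 2.67 times the Control mean. The means were 1432 ± 77.4 CPM (Control) and 2548 ± 1185 (HFpEF; SD, n = 4 each), with log2 fold change 0.83 (SE 0.29, edgeR adjusted p = 0.166; DESeq2 adjusted p = 0.0334). Over the 17 alternative fits the log2 fold change ran from 0.57, without HFpEF replicate 3, to 1.01 and the adjusted p from 0.0334 to 0.324.

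**Figure D3:**
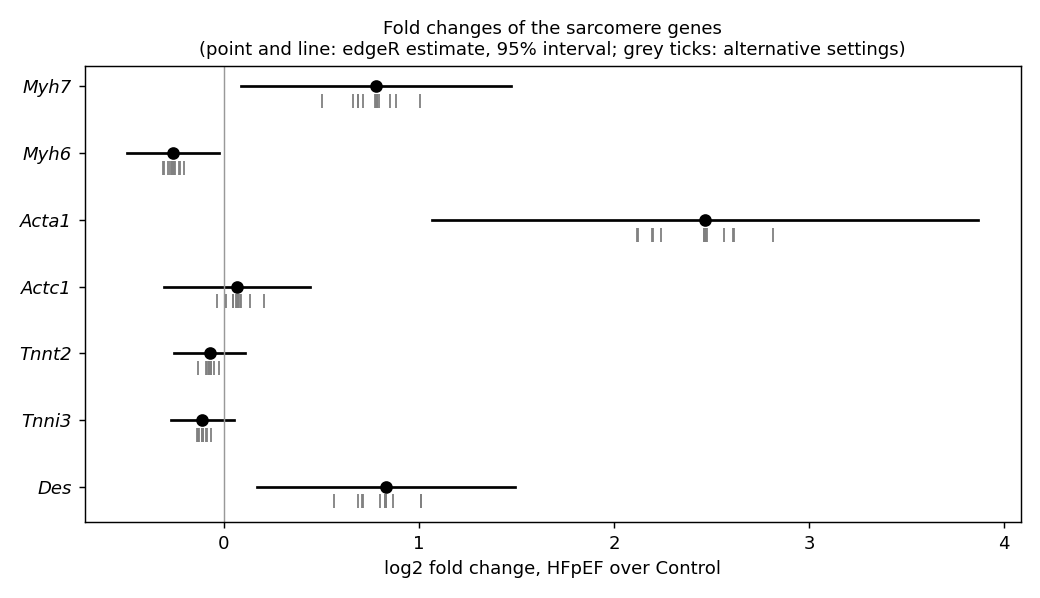
Log2 fold change (horizontal axis, HFpEF over Control) of the 7 genes, with the edgeR estimate as a point, its unadjusted 95% interval as a line and the 17 alternative fits as grey ticks. Acta1 has the widest interval, from 1.07 to 3.87, and the intervals of Actc1, Tnnt2 and Tnni3 include 0.

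The spread within a group was larger in HFpEF than in Control for all 7 genes. For Acta1 the SD of log2 CPM was 1.497 (HFpEF) against 0.63 (Control), and for Myh7 0.70 against 0.29. It was 0.70 against 0.08 for Des, the most unequal of the 7. Across the 7151 tested genes of at least 16 mean CPM the median SD was also larger in HFpEF, at 0.12 against 0.08 in Control. The share of those genes with a larger SD in HFpEF was not counted. Tnni3 was the most even, at 0.09 against 0.08.

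The order of the HFpEF libraries fell into a few patterns. From highest to lowest, Myh7, Acta1 and Actc1 shared the order replicate 2, 3, 1 and 4. Tnnt2 had replicate 3 first, then 2, 1 and 4, and Des had replicate 3 first and then 2, with replicates 1 and 4 level at 1541 CPM. Myh6 and Tnni3 shared the order 1, 3, 4 and 2, so that replicate 2, the highest library of Acta1 and Myh7, was the lowest of Myh6. HFpEF replicate 4 had low Myh6, at 0.769 times the Control mean, together with Control-level Acta1 and Myh7, so a low Myh6 did not always come with a high Myh7.

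**Figure D4:**
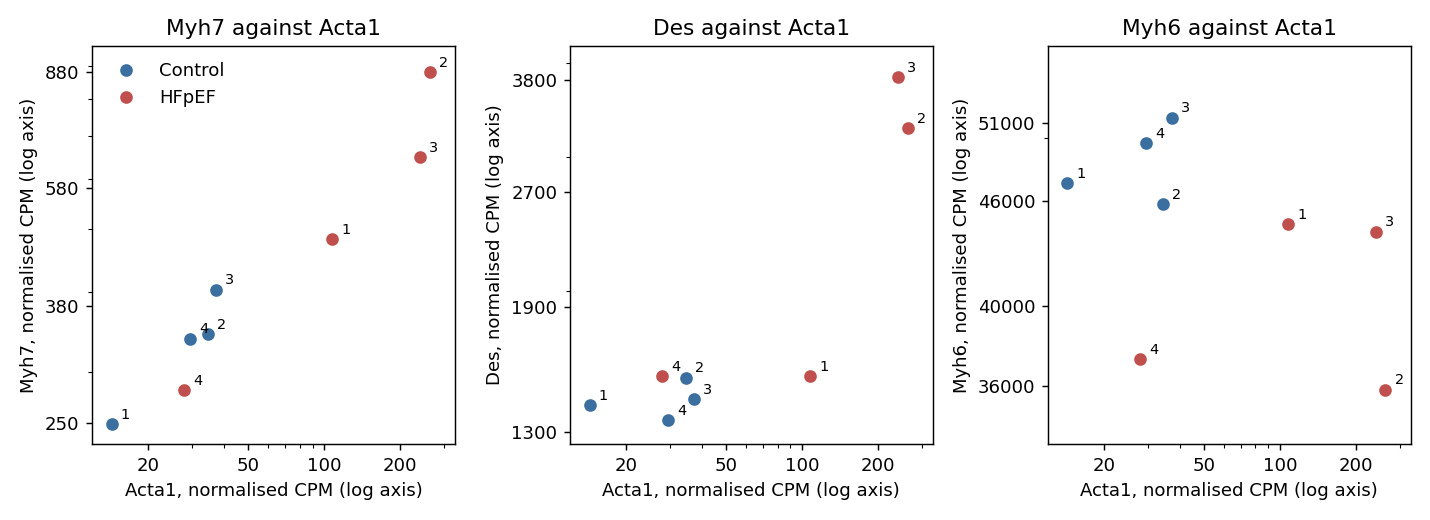
Normalised CPM of Myh7, Des and Myh6 (vertical axes, log scale) against Acta1 (horizontal axis, log scale) in the 8 libraries, labelled by replicate number and coloured by group. Myh7 goes up with Acta1 across libraries, Des is high only in the 2 HFpEF libraries with the most Acta1, and for Myh6 HFpEF replicate 4 is low without a high Acta1.

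As a description over the 8 libraries, which share the group difference, log2 CPM of Myh7 and Acta1 had a Pearson r of 0.968. Des had an r of 0.874 with Acta1 and 0.845 with Myh7. Myh6 and Tnni3 had an r of 0.915, and Myh6 and Acta1 one of -0.459. Among 7144 other genes of at least 16 mean CPM, the one most like Acta1 was ENSRNOG00000052840 (r = 0.967, log2 fold change 0.26, edgeR adjusted p = 0.133). The one most like Myh7 was ENSRNOG00000056462 (r = 0.961, log2 fold change 0.11, edgeR adjusted p = 0.398). Both r were close to that between Acta1 and Myh7 themselves, though the fold changes of both other genes were far smaller. Among the same other genes the highest r was 0.992 with Actc1 and 0.990 with Des, so values of this size were not particular to Acta1 and Myh7.

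Other genes of the sarcomere and markers of pacemaker, ventricular, skeletal muscle, smooth muscle and other cells had been listed by symbol, but the symbols could not be matched to the table's identifiers. The labelled tissue was therefore not checked against node markers, and the part of other cell types in the values of Acta1, Myh7 and Des was not tested.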

How the data were processed

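The authors deposited 1 table of expected counts per gene, not normalized, with a column for each of the 8 libraries. Ribosomal RNA was removed from total RNA, per the labels' protocols. Per the submitters' processing notes, Bowtie2 2.1.0, RSEM 1.2.15 and rn6 were used. For the annotation release and strandedness, a value is not given in the sources used here. Symbols of the 7 genes came with the choice of genes; the reference table paired 0 rows with Ensembl identifiers, so the 12 other gene lists were not matched. The members and lists were chosen with results of these data in view.

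Expected counts were rounded, filtered by filterByExpr (16313 genes), scaled by TMM and tested with edgeR 4.0.16 (R 4.3.3, quasi-likelihood, two-sided), adjusted by Benjamini-Hochberg over all tested genes. Standard errors and 95% intervals come from its F statistic. CPM are edgeR's, on TMM-scaled totals. Isoform ratios used unrounded counts and an exact permutation test. A count was whole within 0.005. The fits were tested on simulated data. Named genes were the 7, plus the gene most like Acta1 and the one most like Myh7 (fixed rule: 3 each, or 2 in all without symbols). DESeq2 1.42.0 and limma-voom (limma 3.58.1) were alternatives, as were other scalings and filters, robust = TRUE, a replicate block and each library left out. Counting error covers depth only, since counts carry no molecular identifiers.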

Additional observations from a re-analysis of the deposited data

How the results depend on the processing

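Of the 7 genes, edgeR called 0 higher and 0 lower. DESeq2 called 2 higher (Acta1, adjusted p = 0.00743, and Des, adjusted p = 0.0334). Leaving out 1 library gave 0 to 1 higher (Acta1, without HFpEF replicate 4, its only HFpEF library within the Control range) and 0 lower. Without HFpEF replicate 4, 245 of all 16472 tested genes were called, 194 of them higher. The cause of these differences between fits was not tested. Acta1, Myh7 and Des kept a positive and Myh6, Tnnt2 and Tnni3 a negative log2 fold change in all 17 alternatives; that of Actc1 ran from -0.035 (without HFpEF replicate 2) to 0.21 (without HFpEF replicate 4) with 1 library left out. Among all tested genes 316 were called (251 higher, 65 lower). DESeq2 called 1248 (856 higher, 392 lower) and limma-voom 37 lower. Leaving out 1 library gave 22 to 332 called, 21 to 234 higher and 0 to 98 lower, the 0 without Control replicate 3, a fit with 2522 genes at an unadjusted edgeR p under 0.05.

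A replicate block in edgeR left 6 called genes, 6 higher and 0 lower, and none of the 6 was among the 7. At an unadjusted p under 0.05 there were 3 of the 7, against 2568 of all 16313 tested genes. The same-number correlations of deviations from group means were -0.140, -0.012, 0.043 and -0.353, so libraries were not treated as paired. Under that pairing the log2 differences of the ratios, 0.95 (Myh7 to Myh6) and 2.07 (Acta1 to Actc1), are the same by construction, with an exact sign-flip permutation p of 0.125 for each, the smallest that 4 pairs allow. Leaving out 1 library moved them between 0.65 and 1.22 and between 1.78 and 2.60, each passing 0.05 only without HFpEF replicate 4. That library was the only HFpEF one within the Control range, so the permutation p without it is no separate support. The lowest count among the 7 genes was 530, with a counting error of 4.34%, below the spread between libraries.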

Other observations

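Over 18 sets of 4 values (the CPM of each of the 7 genes and the 2 ratios, in each group), 0 held a library apart from the other 3 by Dixon's test, with a highest gap share of 0.660 (Acta1, Control replicate 1), under the test's 95% critical value. With 4 values this finds only extreme cases.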
